A study of Mus musculus with 8 samples.

Results

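The replication-dependent histone genes of mice were chosen by their symbols, which begin with Hist1h to Hist4h or carry the current H1f, H2ac, H2bc, H3c or H4c names. Of 33336 gene names and unnamed transcripts in the series, 60 genes met this rule: 6 of histone H1, 16 of H2A, 15 of H2B, 10 of H3 and 13 of H4. The study asked how loss of exon 16, at the 3′ end of Dido1, changes chromatin and transcription in blood cell precursors of C57BL/6 mice. Pre-B cells, B-cell precursors without surface IgM, were sorted from bone marrow for RNA-seq. LSK cells, the bone marrow fraction with stem cells and multipotent progenitors, were sorted for ATAC-seq, which reads accessible DNA. Each assay had 2 WT and 2 Dido1∆E16 libraries. Dido1∆E16 mice carried 1 exon 16 allele deleted in the germ line through Cre-SOX2 and 1 floxed allele removed by Cre under the Vav1 promoter, which acts throughout the blood lineage. Controls, called wild type in the labels and WT here, were littermates that per the study carried 1 floxed and 1 intact Dido1 allele together with the same Vav1 Cre. That Cre acts on the floxed allele in controls too, and the study also calls them heterozygous. The comparison in blood cells is thus of Dido1∆E16 with heterozygous cells. Both genotypes thus carried Cre and a floxed allele, as well as an EYFP reporter. Animals were adults, and material from several mice entered a pre-B library. For these assays the study names male samples of different ages, while its methods describe animals matched for sex and age. The age behind each library is not given in the labels. The study calls the libraries of a group biological replicates, but the labels do not say which animals entered each. The p-values measure the spread between these libraries only.

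Replication-dependent histones package newly copied DNA and are made in large amounts during S phase. H2A, H2B, H3 and H4 form the core of the nucleosome, and H1 binds the linker DNA between nucleosomes. Their genes lie in dense clusters of many near-identical copies. Npat drives their transcription, and the mRNAs end in a stem-loop bound by Slbp in place of a poly(A) tail. How RNA was selected for the libraries is not given in the sources used here, and a selection for poly(A) would recover these mRNAs poorly. Levels between histone genes are therefore compared only as what these libraries recovered.

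In the GRCm38/mm10 coordinates of the files, 49 of the 60 genes lay on chromosome 13, 8 on chromosome 3, 2 on chromosome 11 and 1 on chromosome 6. The stem-loop was searched as a fixed pattern of 16 bases, with a stem of 6 base pairs and a loop of 4 bases. The search covered each transcript and 200 bases past it, and other forms would be missed. A match was found in 57 genes, the exceptions being Hist1h2al, Hist1h2an and Hist2h2be. The matches took 8 forms. The commonest form was in 35 genes of H1, H2A, H2B and H3 and in no H4 gene. The next was in 8 genes, all of H4, and the one after it was in 7 genes, none of H4. Hist1h4i and Hist2h4 shared a further form, and Hist1h4b and Hist1h4j another. These sequences, read from the GRCm38 genome, show 1 gene for each of these forms because the forms separate H4 from the other types. They are in DNA letters, 5′ to 3′ on the strand of the gene, with the stem-loop in capitals and 5 flanking bases on each side.
Hist1h1a: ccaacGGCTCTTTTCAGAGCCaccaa
Hist1h4c: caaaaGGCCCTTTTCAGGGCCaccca
Hist1h3e: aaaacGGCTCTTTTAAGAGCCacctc
Hist1h4i: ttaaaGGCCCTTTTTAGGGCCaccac
Hist1h4b: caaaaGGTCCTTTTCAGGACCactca

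Promoter sequences came from RefSeq on GRCm38.p6, from 250 bases before to 50 bases after the start, and 49 of the 60 genes had one. The 6 shown here are 3 H1 genes whose LSK peaks are compared, the H2A gene with the highest mean TPM, the gene with the lowest p in the RNA test and the H4 gene with the highest mean TPM. Hist1h1a lies on the plus strand with its window at chr13:23763418-23763717, and Hist1h1b on the minus strand at chr13:21780576-21780875. The window of Hist1h1c is chr13:23738557-23738856 on the plus strand, that of Hist1h2ao is chr13:21810117-21810416 on the plus strand, that of Hist3h2a is chr11:58954435-58954734 on the plus strand and that of Hist1h4i is chr13:22041313-22041612 on the minus strand. Capitals mark 4 motifs searched on both strands: the TATA box TATAAA, the CCAAT box CCAAT, the octamer ATTTGCAT, which binds Oct factors, and the H1 box AAACACA.
Hist1h1a: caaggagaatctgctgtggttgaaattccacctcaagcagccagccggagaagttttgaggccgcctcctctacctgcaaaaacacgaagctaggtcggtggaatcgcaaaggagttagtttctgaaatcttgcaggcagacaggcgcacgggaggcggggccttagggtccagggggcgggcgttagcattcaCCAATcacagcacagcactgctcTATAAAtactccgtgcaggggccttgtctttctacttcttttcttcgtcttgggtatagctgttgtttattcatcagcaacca
Hist1h1b: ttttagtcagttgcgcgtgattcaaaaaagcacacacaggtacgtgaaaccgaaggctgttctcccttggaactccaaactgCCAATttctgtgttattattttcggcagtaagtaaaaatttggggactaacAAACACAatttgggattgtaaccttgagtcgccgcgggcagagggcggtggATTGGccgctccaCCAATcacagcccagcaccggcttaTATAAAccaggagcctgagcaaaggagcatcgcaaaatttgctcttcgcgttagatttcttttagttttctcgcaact
Hist1h1c: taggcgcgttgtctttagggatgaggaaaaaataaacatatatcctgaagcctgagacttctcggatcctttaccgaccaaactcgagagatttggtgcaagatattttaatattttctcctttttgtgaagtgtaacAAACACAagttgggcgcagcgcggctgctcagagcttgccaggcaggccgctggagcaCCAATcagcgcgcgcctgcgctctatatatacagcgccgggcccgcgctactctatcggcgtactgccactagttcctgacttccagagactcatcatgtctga
Hist1h2ao: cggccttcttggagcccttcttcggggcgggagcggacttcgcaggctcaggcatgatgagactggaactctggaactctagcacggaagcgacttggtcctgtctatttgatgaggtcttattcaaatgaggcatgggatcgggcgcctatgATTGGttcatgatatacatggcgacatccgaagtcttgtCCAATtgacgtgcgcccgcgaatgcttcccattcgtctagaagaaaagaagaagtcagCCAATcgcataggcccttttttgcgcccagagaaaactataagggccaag
Hist3h2a: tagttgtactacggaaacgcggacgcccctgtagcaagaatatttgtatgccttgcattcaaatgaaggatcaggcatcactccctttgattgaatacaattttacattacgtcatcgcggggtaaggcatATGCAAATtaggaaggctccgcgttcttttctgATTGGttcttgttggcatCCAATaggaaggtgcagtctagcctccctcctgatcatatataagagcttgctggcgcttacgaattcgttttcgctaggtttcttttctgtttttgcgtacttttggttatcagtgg
Hist1h4i: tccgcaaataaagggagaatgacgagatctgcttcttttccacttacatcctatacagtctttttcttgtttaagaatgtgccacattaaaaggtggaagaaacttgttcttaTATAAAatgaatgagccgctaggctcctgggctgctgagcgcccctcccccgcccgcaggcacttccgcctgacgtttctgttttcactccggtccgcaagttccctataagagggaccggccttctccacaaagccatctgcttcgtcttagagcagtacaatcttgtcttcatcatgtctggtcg

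The motifs were unevenly spread over the histone types. TATAAA was in 29 of the 49 histone promoters (59.2%) against 13.6% of 32544 promoters of the same length, and it stood 20 to 45 bases before the start in 13 of them (26.5%, against 2.13%). The H1 genes Hist1h1a, Hist1h1b, Hist1h1d and Hist1h1e had it in that place. CCAAT was in all 37 matched promoters of H1, H2A, H2B and H3 but in 3 of 12 of H4, with 37.4% over all promoters. The octamer was in 6 of 14 H2A and 3 of 11 H2B promoters, in none of the other types, and in 1.75% of all promoters. AAACACA was in 4 of 5 H1 promoters, all but Hist1h1a, and in 7.2% of all promoters. These counts describe letters in a window and not sites of binding.

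The genotype was checked first. Coverage of Dido1 exon 16, scaled to each library, was 24.6 and 21.8 in WT and 0.295 and 0.0843 in Dido1∆E16 pre-B libraries. The other exons of Dido1 had 49.0 and 50.9 in WT and 32.4 and 42.6 in Dido1∆E16, so exon 16 was below them in WT too. RNA libraries held 1121 to 1635 megabases of aligned sequence on transcripts. B-lineage genes such as Cd79a and Vpreb3 summed to 16200 to 18700 TPM in every library, and of 8 T and NK markers Cd3e, Cd3g, Cd4 and Cd8a were listed at 0 in all, while Lck had 12.6 to 22.3 TPM and the other 3 were at 0 to 16.3 TPM. Markers of other cells were uneven. The 9 neutrophil and monocyte markers summed to 209, 1780, 885 and 7530 TPM in WT replicates 1 and 2 and Dido1∆E16 replicates 1 and 2, and the 7 listed erythroid markers to 301, 922, 677 and 8640 TPM. In LSK cells 4 to 6 of the 8 LSK markers had a promoter peak in each library, and 3 erythroid, 3 neutrophil and monocyte and 1 T or NK marker had one in WT replicate 2 and none in the other 3 libraries. In bulk samples, fewer cells of a type and less RNA per cell cannot be told apart.

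Histone mRNA was a small part of what the pre-B libraries recovered. The 60 genes took 0.142% and 0.104% of all TPM in WT against 0.0901% and 0.079% in Dido1∆E16. TPM divides by transcript length and by the library total, so genes can be set side by side, within the limits of recovery and of shared sequence. In what follows, 4 values for a gene stand in the order WT replicate 1, WT replicate 2, Dido1∆E16 replicate 1, Dido1∆E16 replicate 2. Summed over all 60 genes the values were 1416, 1044, 901.4 and 790.5 TPM, with means of 1230 ± 263 in WT and 846 ± 78.5 in Dido1∆E16 (SD, n = 2 each), a log2 ratio of -0.54. Both WT sums were above both Dido1∆E16 sums, which in an exact two-sided permutation test of 2 against 2 gives p = 0.333, the smallest possible. This separation rested on few genes: without Hist1h2ao, Hist1h1c and Hist3h2a, the 3 highest, the sums were 675.9, 552.0, 567.7 and 534.0 TPM, the groups overlapped and the log2 ratio was -0.16.

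The sums by type differed in how steady they were. H3 genes summed to 81.64, 82.05, 77.88 and 83.62 TPM, and H2B genes to 171.7, 194.6, 194.7 and 171.1 TPM. Neither type separated the genotypes, with log2 ratios of -0.02 for H3 and -0.002 for H2B. H2A genes summed to 860.5 TPM in WT replicate 1 and to 292.7, 343.2 and 307.8 TPM in the other libraries. H4 genes had the same order of libraries, with 140.9, 79.48, 93.86 and 84.07 TPM. H1 genes were instead highest in WT replicate 2, with 160.8, 395.0, 191.8 and 143.9 TPM. The log2 ratios of H1, H2A and H4, which were -0.73, -0.83 and -0.31, thus each rested on 1 WT library. Without WT replicate 2 the H1 ratio was 0.06, and without WT replicate 1 the H2A and H4 ratios were 0.15 and 0.16. A level sum did not mean steady genes, as Hist2h3c1 gave 49.7% of H3 and Hist3h2ba 52.2% of H2B. By gene, the median size of the log2 difference between WT replicates was 0.50 for H3 and 0.43 for H2B. It was 0.24 for H1, 1.30 for H2A, 1.01 for H4 and 0.31 for all genes.

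**Figure D1:**
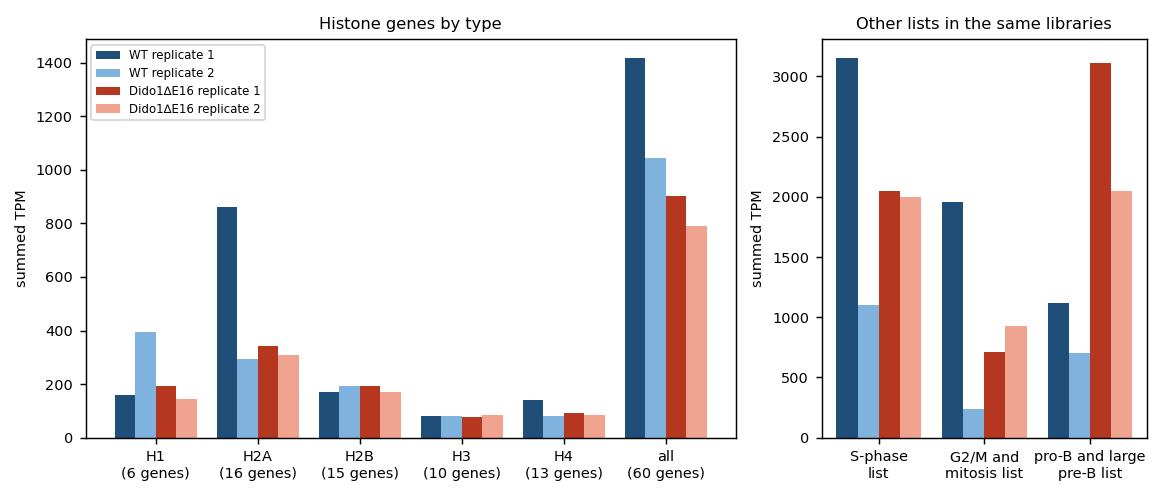
Summed TPM (linear axis from 0) of the histone genes by type and of 3 other gene lists, 1 bar for each pre-B library. H3 and H2B bars are level, H2A and H4 are highest in WT replicate 1, H1 is highest in WT replicate 2, and the S-phase list runs from 1100 TPM in WT replicate 2 to 3150 TPM in WT replicate 1.

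Among the H1 genes, Hist1h1c, a somatic linker histone gene, took most of the signal. It had 102.9, 344.3, 143.5 and 94.52 TPM, so that WT replicate 2 alone made the H1 sum of that library high, and its log2 fold change was -0.69 (SE 0.64). Hist1h1e and Hist1h1d were steady, at 22.84, 20.93, 21.73 and 25.86 TPM and at 11.13, 13.3, 12.51 and 10.35 TPM. Hist1h1a had 11.23 and 13.19 TPM in WT and 8.53 and 7.93 TPM in Dido1∆E16 libraries. Its groups did not overlap, with a log2 fold change of -0.52 (SE 0.23, adjusted p = 0.521). Hist1h1b was high in WT replicate 1 only, with 12.27, 3.272, 5.586 and 5.278 TPM. The testis H1 gene Hist1h1t was at 0.438 TPM in WT replicate 1 and listed at 0 elsewhere.

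Of the H2A genes, Hist1h2ao had, as a sum of 2 transcripts, the highest mean level of all histone genes, with 403.3, 54.56, 139.1 and 132.3 TPM. Both Dido1∆E16 libraries lay between the WT libraries, and the log2 fold change was -0.13 (SE 0.99). It was counted on a pair of transcripts with mirrored positions, at chr13:21810367-21810918 and chr13:21833024-21833575, which held similar values in each library. The rank rests on adding them. Each transcript alone had a lower mean than Hist1h1c (171.3 TPM), Hist3h2a (101.8 TPM) and Hist3h2ba (95.5 TPM). Hist1h2ag followed the same order at 68.21, 8.296, 26.74 and 24.98 TPM, and 74% of its 50-base windows also occur in Hist1h2ao. Hist2h2aa2 ran the other way, with 41.89, 81.07, 54.26 and 47.75 TPM.

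Hist3h2a, which lies apart from the main cluster on chromosome 11, was the histone gene with the lowest p. It had 233.5 and 92.99 TPM in WT and, lower, 51.15 and 29.62 TPM in Dido1∆E16. The log2 fold change was -1.89 (SE 0.54, adjusted p = 0.344 in limma). The groups did not overlap, but the change did not pass the adjusted threshold. A second transcript of the annotation shares its start and was listed at 0, 98.1, 69.5 and 48.7 TPM under the symbol Trim17, an E3 ubiquitin ligase gene. When the scaled coverage of both transcripts was added over the first exon the values were 168, 379, 234 and 157, and the groups overlapped. How reads were divided between these transcripts was not tested. Hist1h2af, with 4.528, 3.236, 1.685 and 1.373 TPM, also had WT above Dido1∆E16 (log2 fold change -0.94, SE 0.39, adjusted p = 0.49). Hist2h2ac had the largest positive fold change, 1.33 (SE 1.00, adjusted p = 0.682). It was listed at 0 in WT replicate 1 and had 5.675, 5.795 and 5.196 TPM in the others.

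Among the H2B genes, Hist3h2ba, the neighbour of Hist3h2a, had 78.84, 107.3, 103.1 and 92.74 TPM, and its log2 fold change was 0.09 (SE 0.20). Hist1h2bc had 30.51, 34.29, 32.01 and 30.62 TPM, most of it on a spliced transcript of 2 exons that runs past the stem-loop. Hist1h2bg had 10.66, 14.98, 14.8 and 11.16 TPM. In all 3 genes the groups overlapped. Hist1h2bh had 4.007 and 4.309 TPM in WT and 2.301 and 2.296 TPM in Dido1∆E16 libraries (log2 fold change -0.64, SE 0.34, adjusted p = 0.58). Hist1h2bf was the only histone gene with both Dido1∆E16 libraries above both WT libraries, at 2.151, 1.6, 3.63 and 2.63 TPM.

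For H3, Hist2h3c1 had 33.26, 44.92, 42.36 and 41.24 TPM and Hist2h3b had 9.129, 9.976, 6.976 and 10.57 TPM. Most of the Hist2h3c1 value (22.1, 36.6, 30.5 and 28.0 TPM) was on a transcript of 1892 bases that held 2 stem-loops. Neither gene separated the genotypes. Hist1h3a had 9.456 and 10.63 TPM in WT and 4.5 and 6.482 TPM in Dido1∆E16 libraries, with a log2 fold change of -0.78 (SE 0.29, adjusted p = 0.442). Hist1h3h also had both WT libraries above both Dido1∆E16 libraries, at 5.052, 3.27, 2.594 and 1.773 TPM. Hist1h3e had 5.006, 0.875, 5.124 and 3.369 TPM, with WT replicate 2 low, and a log2 fold change of 0.62 (SE 0.69).

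The H4 genes mostly followed WT replicate 1. Hist1h4i had 48.39, 21.37, 37.26 and 24.09 TPM, Hist1h4n had 17.9, 10.43, 11.77 and 12.59 TPM and Hist1h4c had 12.93, 6.197, 7.478 and 8.134 TPM. In each of these the Dido1∆E16 libraries lay between the WT libraries. Hist1h4h was the exception among the 13, at 3.152, 16.84, 8.174 and 6.097 TPM. Hist1h4b had WT above Dido1∆E16, at 11.04, 5.217, 3.22 and 1.005 TPM, a log2 fold change of -1.57 (SE 0.58, adjusted p = 0.436). Hist1h4k had 3.62, 0.524, 2.933 and 3.682 TPM, with WT replicate 2 low (log2 fold change 0.69, SE 0.67).

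**Figure D2:**
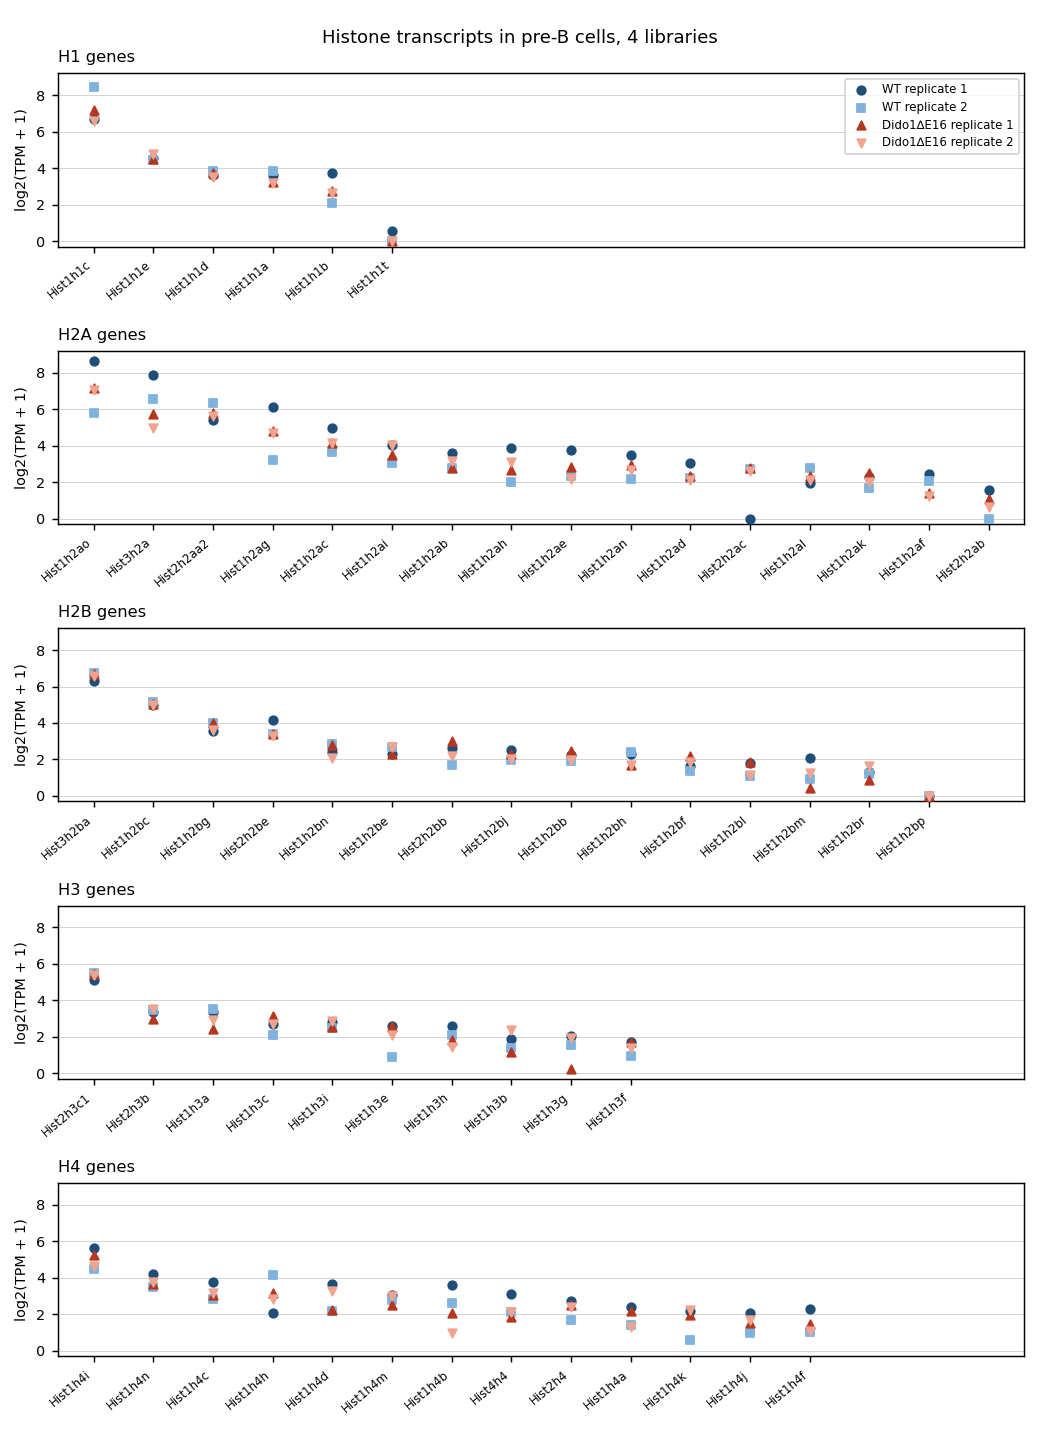
Level of each of the 60 histone genes, as log2(TPM + 1), in the 4 pre-B libraries, by type and in order of mean TPM. Hist1h2ao and Hist1h1c have the highest means, WT replicate 1 lies above WT replicate 2 for most H2A and H4 genes, and the transcript named Hist1h2bp in the files is at 0 in all 4 libraries.

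The test across the whole transcriptome called no histone gene. It was limma on log2(TPM + 1) over 12281 genes with a mean of at least 1 TPM, and a call needed a Benjamini-Hochberg adjusted p below 0.05 and a log2 fold change of at least 0.6 in size. Of the 60 histone genes, 57 passed the filter and Hist1h1t, Hist1h2bp and Hist2h2ab did not. For Hist1h2bp this followed from the naming of transcripts: a second, unspliced transcript from the same start, which the files leave without a symbol, had 2.329, 1.085, 1.047 and 1.262 TPM. No histone gene was called, beside 6 of all genes (0.0489%). In limma without its variance trend none was called either. At an unadjusted p below 0.05 there was 1, Hist3h2a, beside 11.5% of all genes, and without the trend there were 5. In 7 of the 57 histone genes both Dido1∆E16 libraries lay below both WT libraries (Hist1h1a, Hist1h2af, Hist1h2bh, Hist1h3a, Hist1h3h, Hist1h4b and Hist3h2a), which is near the background of 15.8%. In 1 both lay above, beside 26.7% of all genes. The median log2 fold change was -0.10 over the histone genes and 0.07 over all genes. It was 0.17 without WT replicate 1 and -0.31 without WT replicate 2, so its direction depended on 1 library.

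Histone genes spread more between the WT replicates than all genes did. WT replicate 1 was above WT replicate 2 in 41 of 57 histone genes (71.9%, against 57.8% of all genes), in 12 of 15 H2A genes and in 12 of 13 H4 genes. The median size of the log2 difference between the WT replicates was 0.79 for histone genes and 0.31 for all genes. Between the Dido1∆E16 replicates the medians were 0.37 and 0.19. The median size of the genotype fold change was 0.19 for histone genes and 0.25 for all genes. A fold change is a difference of means of 2 libraries, so its size is not ranked against differences of single libraries. Both Dido1∆E16 libraries lay between the WT libraries in 23 of the 57 histone genes (40.4%) and in 22.1% of all genes. Histone genes share reads and regulation and are not independent of each other, so these shares are descriptions.

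**Figure D3:**
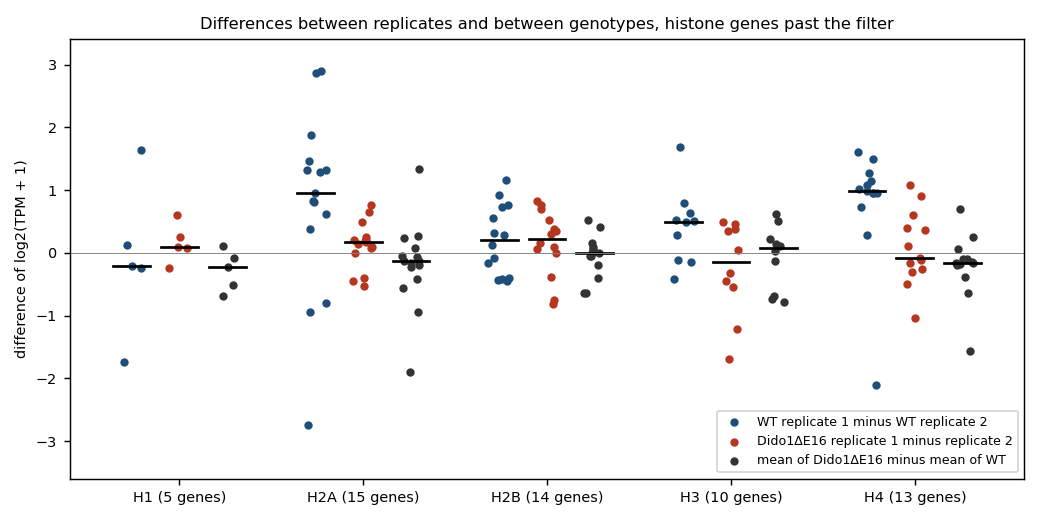
Differences of log2(TPM + 1) for the 57 histone genes past the filter, by type: between WT replicates (blue), between Dido1∆E16 replicates (red) and between the genotype means (black), with short bars at the medians. The blue points of H2A and H4 sit mostly above 0, with medians of 0.96 and 0.98, while the black medians lie between -0.23 and 0.07.

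Genes that act on the histones and their mRNAs were read from fixed lists. The 24 genes for transcription, processing or decay of histone mRNA summed to 2360, 1600, 1920 and 1860 TPM. Of these 23 passed the filter and none had an unadjusted p below 0.05 in limma. Slbp, which binds the stem-loop, had 140.0, 56.8, 79.2 and 70.6 TPM (log2 fold change -0.25, SE 0.46), and Npat had 18.2, 12.9, 14.8 and 15.8 TPM (log2 fold change -0.004, SE 0.25). Sympk, a subunit of the cleavage complex, had the lowest p of that list, with 140.0, 111.0, 161.0 and 178.0 TPM (log2 fold change 0.43, SE 0.17, adjusted p = 0.457). Of 19 histone chaperones none was called and 1 had an unadjusted p below 0.05. That gene was Asf1a, which hands H3 and H4 to assembly factors, with 120.0, 138.0, 90.4 and 79.5 TPM (log2 fold change -0.60, SE 0.15, adjusted p = 0.315).

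Of 10 tested genes for histones made outside S phase none was called. A negative fold change was seen in 9, beside 5192 of all 12281 genes, and none of the 9 had an unadjusted p below 0.05. The exception, H1f0, encodes the linker histone of resting and differentiating cells. It had 50.7 and 48.2 TPM in WT against 115.0 and 128.0 TPM in Dido1∆E16, with a log2 fold change of 1.28 (SE 0.13, adjusted p = 0.154). H2afx, whose product marks DNA breaks and whose mRNA is also made in S phase, had 976.0, 183.0, 348.0 and 416.0 TPM. The 26 S-phase genes summed to 3150, 1100, 2050 and 2000 TPM and the 10 G2/M and mitosis genes to 1960, 239, 711 and 925 TPM. None of these genes was called. Cdt1 was the only one with an unadjusted p below 0.05 (log2 fold change -0.44, SE 0.13, adjusted p = 0.344). The order of libraries for both lists was that of the H2A sum in having WT replicate 1 highest and WT replicate 2 lowest. The part that cell cycle stage or other cells played in the histone levels was not tested.

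Markers of other B-cell stages differed in level between libraries. Of 8 markers of pro-B and large pre-B cells, 6 had an unadjusted p below 0.05 with higher values in Dido1∆E16, beside 11.5% of all genes in either direction, and the sum of all 8 was 1120, 706, 3110 and 2050 TPM. Vpreb1, a surrogate light chain gene, had 108.0, 40.9, 1220 and 738.0 TPM (log2 fold change 3.81, SE 0.55, adjusted p = 0.193). The 7 mature B markers summed to 4140, 4180, 5020 and 5880 TPM, with most of the difference in Cd74 (2690, 2660, 3720 and 4390 TPM). Of these 7, 4 had a negative fold change and the median was -0.10, and at an unadjusted p below 0.05 Cd74 was higher and Fcer2a and H2-Ab1 lower. The sums were, for 5 plasma cell markers, 723, 908, 665 and 594 TPM and, for the 8 T and NK markers, 29.2, 22.9, 20.8 and 41.3 TPM. No marker was called, and their part in the histone values was not tested.

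Sequence shared between copies limits how far single histone genes can be told apart. Over the 60 genes the median share of 50-base windows that also occurred in another histone gene was 49.4%. The median was 9.55% for H1, 47.7% for H2B, 48.8% for H4, 60.1% for H2A and 63.1% for H3. In 29 of 60 genes more than 50% of windows were shared, and Hist1h4n and Hist1h2br had no window of their own. Hist3h2a shared 9.15% and Hist1h1a none. Only histone genes were compared, so the overlap of Hist3h2a with the transcript named Trim17 from the same start is not counted in its share. By symbol, sharing crossed types: Hist2h2aa2 shared 90.9% of its windows with Hist2h3c1, and Hist1h3e shared 44.9% with Hist1h2ad. Here the main transcripts of Hist2h3c1 (1892 bases) and Hist1h2ad (1886 bases) each held 2 stem-loops, so each may span more than 1 histone gene. This sharing is therefore not read as likeness between H2A and H3 genes. The effect on the sums by type was not tested. The main transcript of 54 genes ended within 30 bases of the stem-loop or before it. Those of Hist1h2bc, Hist1h2be and Hist1h2bp ran on past it, and those of Hist1h2al, Hist1h2an and Hist2h2be had no match to the stem-loop pattern.

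In LSK cells the histone promoters were accessible in most libraries. The MACS2 files listed 27352 and 57739 peaks for WT against 13208 and 16329 for Dido1∆E16. A promoter peak, from 1000 bases before to 200 bases after the start in the deposited annotation, was assigned to 43 and 48 of the 60 histone genes in WT and to 38 and 41 in Dido1∆E16 libraries. The groups did not overlap (exact two-sided permutation p = 0.333, the smallest possible), as for the count of all genes with a promoter peak, which was 9411 and 12129 in WT and 7572 and 7578 in Dido1∆E16. When every library was limited to its 13208 peaks of highest score the order turned, with 29 and 27 histone genes in WT and 38 and 35 in Dido1∆E16, and so did that of all genes (6325 and 6484 against 7572 and 6783). By HOMER peaks the counts were 36, 35, 32 and 33. When peaks were assigned by position alone, 54, 59, 50 and 53 histone genes had one over the promoter window, and 48 had one in all 4 libraries. By type these were 3 of 6 H1, 15 of 16 H2A, 14 of 15 H2B, 7 of 10 H3 and 9 of 13 H4 genes.

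The deposited annotation gave each peak to 1 gene, and many histone genes share a promoter. There were 10 pairs with starts facing away from each other within 168 to 608 bases, with a median of 226. Of these 9 joined an H2A and an H2B gene, and 1 joined Hist1h2bh and Hist1h3f. The peak between Hist1h2ac and Hist1h2bc, whose starts are 240 bases apart, was assigned to Hist1h2ac in all 4 libraries and to Hist1h2bc in none. Among the 10 pairs, 7 had a gene with no promoter peak by annotation in any library whose partner had one in all 4. Hist1h2ao and its partner Hist1h2br each had transcripts at 2 mirrored places, and their pre-B means of 182 and 1.42 TPM are sums over these. At 1 place, the shared WT region chr13:21833249-21834000 covered both starts. The Hist1h2ao transcript there had 200.5, 27.1, 63.0 and 64.6 TPM. The Hist1h2br transcript had 1.48, 1.27, 0.83 and 2.08 TPM, for a gene with no window of its own.

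Peak scores differed between libraries. The MACS2 score, a whole number that grows with the strength of a peak, had a median over histone promoter peaks of 49 and 106 in WT and 40 and 27.5 in Dido1∆E16. The medians over all promoter peaks were 48 and 89 in WT and 50 and 37 in Dido1∆E16. The lists of promoter peaks differed in length (9803 and 13038 in WT, 7766 and 7805 in Dido1∆E16), so a place within a list is not compared between genotypes. By annotated peaks, the promoters with the highest mean score were those of Hist1h2ao in H2A (90, 191, 79 and 65), Hist1h3e in H3 (75, 177, 109 and 47), Hist1h4c in H4 (43, 159, 81 and 50), Hist1h2bh in H2B (73, 153, 57 and 28) and Hist1h1c in H1 (49, 145, 41 and 23). By position the same genes led in H1, H2A, H3 and H4. In H2B, Hist1h2br, over the peak of Hist1h2ao, and Hist1h2bc (97, 181, 62 and 59) stood above Hist1h2bh. So did Hist1h2bn (96, 172, 47 and 50) and Hist1h2bj (62, 176, 76 and 41).

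**Figure D4:**
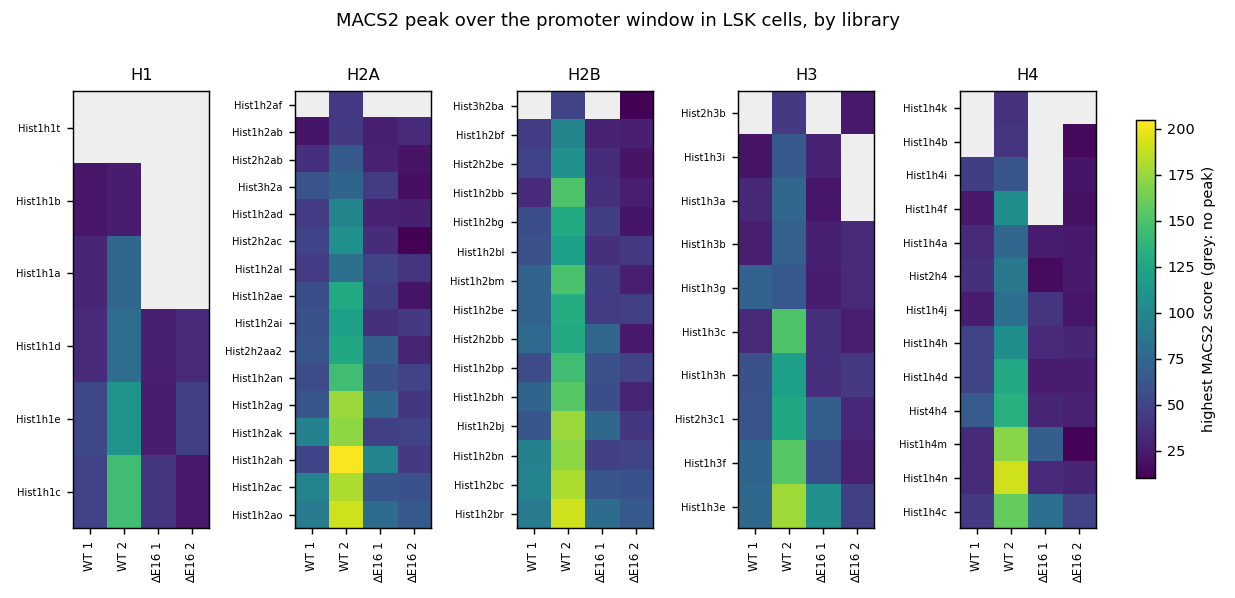
Highest MACS2 score of a peak over the promoter window (1000 bases before to 200 bases after the start) of each histone gene in the 4 LSK libraries, with grey where there was no peak. WT replicate 2 has the highest scores in most genes, and Hist1h1a and Hist1h1b have peaks in both WT libraries and in neither Dido1∆E16 library.

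The genes with a promoter peak in both WT libraries and in neither Dido1∆E16 library were Hist1h1a, Hist1h1b and Hist1h3h, 3 of the 39 histone genes with one in both WT libraries, beside 14.9% of all such genes. The reverse held for 0 of 35 histone genes, beside 0.28% of all genes. For Hist1h1a the annotated WT peaks had scores of 31 and 32, and for Hist1h1b 22 and 25, low among all promoter peaks. By position both genes kept this pattern, whereas Hist1h3h had a peak in all 4 libraries over its window (58, 120, 37 and 42). HOMER annotated a peak to the promoter of Hist1h1a in Dido1∆E16 replicate 1 alone and to that of Hist1h1b in both WT libraries and Dido1∆E16 replicate 2. The promoters of Hist1h1c and Hist1h1d had a peak in all 4 libraries by both callers.

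Counted as regions, 46 histone promoter regions were shared by both WT libraries. Of these 2 had no overlapping peak in either Dido1∆E16 library, which is 4.35% (exact Clopper-Pearson 95% interval 0.531 to 14.8, counting error only), beside 15.0% of all 9755 shared promoter regions. By HOMER peaks the shares were alike, 8.11% of 37 histone regions and 7.96% of all. They were chr13:21717565-21717944 across the start of Hist1h3h, with a WT score of 19, and chr13:23763608-23763827 at the start of Hist1h1a, with a score of 31. The region of Hist1h1b overlapped a peak of Dido1∆E16 replicate 2 that was annotated to the exon of the same gene, and Dido1∆E16 replicate 1 had a peak annotated to the gene outside the promoter window. The WT-only pattern of Hist1h1b therefore depended on where the promoter window ended. Shared WT regions of every kind were split into 5 score classes. Among promoter regions of all genes, 48.5% in the lowest class had no Dido1∆E16 peak, and 0.798% in the highest. Of the 46 histone regions, 29 lay in the top 2 classes and none of those was without a Dido1∆E16 peak. Neighbouring regions of a cluster are not independent.

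Tag counts in wider regions could be read in the authors' lists of differential regions, which hold log2 tag counts scaled to 10000000 tags. The list with WT as target had 15 regions over promoters of 23 histone genes, and the list with Dido1∆E16 as target had 12 regions over 15 histone genes, largely the same places. All were lower in both Dido1∆E16 libraries, as were 99.9% and 99.6% of all regions in these lists. The lists had been chosen by the authors' test on these libraries, so the direction is a description. The median difference of the histone regions, -0.86 and -0.82 in log2 tags, was slightly smaller in size than the medians of all listed regions, -0.93 and -0.92. The region over Hist1h1a, Hist1h3a and Hist1h4a held 592.7, 517.5, 386.3 and 316.2 tags per 10000000, so that DNA was recovered there in Dido1∆E16 cells. Hist1h1c had 337.6, 329.9, 236.2 and 142.9 tags and Hist1h2bm 204.8, 188.5, 100.7 and 83.8 tags, the largest difference of the 15 at -1.10.

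**Figure D5:**
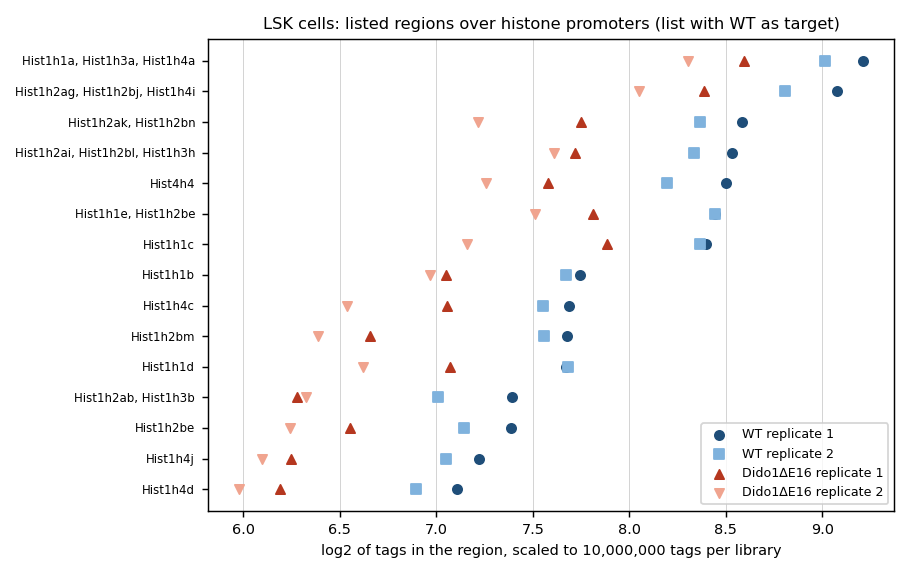
Tags per 10000000 (log2) in the 4 LSK libraries for the 15 listed regions over histone promoters, from the list with WT as target. In every region both Dido1∆E16 libraries lie to the left of both WT libraries, as in 99.9% of all 8540 regions of that list, which was chosen by the authors' test.

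Histone genes with an accessible promoter in all LSK libraries did not have the higher median level in pre-B cells. The 48 genes with a peak over the promoter window in all 4 LSK libraries had a median level of 4.81 TPM in pre-B cells (range 0 to 182). The other 12 had a median of 6.01 TPM (range 0.109 to 95.5). Hist3h2ba, at 95.5 TPM the gene with the highest level among these 12, had an LSK peak in WT replicate 2 with a score of 50 and in Dido1∆E16 replicate 2 with a score of 11. Hist1h1a, with WT peaks only, was at 10.2 TPM. The cell types differ, and this is a description over genes.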

How the data were processed

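RNA-seq of pre-B cells and ATAC-seq of LSK cells were analysed from 4 libraries each, 2 per genotype. Reads had been aligned to mm10, for RNA-seq with BWA-MEM 0.7.15, which does not splice reads, and for ATAC-seq with Bowtie2 or BWA-MEM. Duplicates had been removed. The effect of either step on these genes was not tested. The deposited StringTie files give TPM, FPKM and coverage per UCSC transcript. The deposited MACS2 and HOMER peak files give a score per peak with the authors' ChIPseeker annotation. The authors' lists of differential regions give log2 tag counts scaled to 10000000 tags. Their fold changes, p-values and log2 CPM (columns of the authors' own comparisons, which used edgeR) were not used.

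TPM was summed per symbol. Symbols came from the files for 30126 transcripts and from GENCODE M21 for 26251, where at least 50% of the exonic bases were shared, and 7547 had none. Genes with a mean of at least 1 TPM were tested with limma 3.58.1 (R 4.3.3, eBayes with trend) on log2(TPM + 1), a scale that understates changes of low genes, with no block. TPM files give no read counts, so intervals from counting do not apply to them. Shared regions were found with bedtools 2.31.1 at 1 base of overlap. Motifs and 50-base windows were searched in Python 3.11.15. The fit was tested on simulated data.

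The histone genes and the gene lists were chosen with earlier results of these data known. Genes named in the text were the 3 with the highest mean TPM in each type, any called or with p below 0.05, the 3 largest fold changes in each direction, those with promoter peaks in 1 genotype, and the highest promoter score of each type. Others were named because a count of few genes included them or for a contrast, after their values were seen. Alternatives were a pseudocount of 0.1, no filter, median centring, FPKM, TPM without immunoglobulin transcripts, a replicate block, leaving out each library, limma without trend, transcripts, HOMER peaks, equal numbers of peaks, the better-scoring 50% of peaks, assignment by position and 50% overlap. Deviations from the group mean of same-numbered RNA libraries had r = 0.052 over 12281 genes (2 pairs). With 2 libraries per group both pairs give the same value, so it does not decide whether libraries were paired. Aligned sequence was 1581 and 1635 megabases in replicates 1 of WT and Dido1∆E16, and 1121 and 1174 megabases in replicates 2. Whether replicate number marks a batch was not tested.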

Additional observations from a re-analysis of the deposited data

How the results depend on the processing

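No histone gene was called under any of the 13 alternatives to the RNA test, each library left out in turn included (0 to 0 calls). Counts at an unadjusted p below 0.05 ran from 0 to 7. Over all genes the calls were 6, but 51 without the variance trend, 25 with transcripts and 0 with a pseudocount of 0.1, without a filter, or with any library left out. With the replicate number as a block, 0 histone genes and 0 of all genes were called, 2 histone genes had an unadjusted p below 0.05, and the median log2 fold change stayed at -0.10. Over the leave-one-out fits this median ran from -0.31 to 0.17. Log2 ratios of the sums ran from -1.235 to 0.062 for H1, -1.40 to 0.15 for H2A, -0.10 to 0.09 for H2B, -0.072 to 0.031 for H3, -0.66 to 0.16 for H4 and -0.74 to -0.30 for all. An alternative chosen after seeing the data, leaving out the 3 highest genes, gave -0.16 for all. Adding the other transcript of the Hist3h2a start gave -0.50, and adding histone names through GENCODE gave -0.53, both also chosen afterwards. In LSK cells the difference in histone genes with a promoter peak (Dido1∆E16 minus WT) was -6.0, from -8.5 to -3.5 with a library left out, and turned to 8.5 with equal numbers of best-scoring peaks, where the count over all genes turned too. The share of WT promoter regions without a Dido1∆E16 peak was 0.0% with equal numbers of peaks (all promoters 2.66%), 22.6% with the better-scoring 50% of peaks (19.1%), 8.11% by HOMER (7.96%), 10.9% at 50% overlap (20.9%) and 4.35% to 15.2% with a library left out. The causes were not tested. Of 240 values of 24 named genes under the alternatives, 213 moved by less than 1 SE and 27 by more. With 2 libraries per genotype the exact tests could not go below p = 0.333.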

Other observations

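Some histone transcripts carry no symbol in the files that the rule uses and received one only through GENCODE. Hist1h2bk, an H2B gene of the chromosome 13 cluster, had 10.03 TPM in WT replicate 1, 0.501 in WT replicate 2, then 2.11 and 2.66 in Dido1∆E16, the order of the H2A and H4 sums in having WT replicate 1 highest and WT replicate 2 lowest. The pseudogene Hist3h2bb-ps has a transcript that overlaps the promoter window of Hist3h2a on the opposite strand. It had 3.89 and 4.39 TPM in WT and 12.95 and 6.76 TPM in Dido1∆E16 libraries, so its groups did not overlap. No opposite change of Hist3h2a is read from this. The groups of Hist3h2a overlapped once the scaled coverage of the transcript named Trim17 was added over the first exon (168, 379, 234 and 157). The testis histone genes Hist1h2aa and Hist1h2ba stayed at or below 0.992 TPM in all libraries. None of these genes was part of the counts given above, and these values were not tested.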
